A study of Mus musculus with 12 samples.

Results

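The miR-23/27/24 clusters are a pair of paralogous miRNA clusters, and their levels were measured by small RNA sequencing of murine serum. The members were chosen by accession, without use of their values, although earlier results of these data were known. They are the 5 mature miRNAs miR-23a-3p (MIMAT0000532), miR-23b-3p (MIMAT0000125), miR-27a-3p (MIMAT0000537), miR-27b-3p (MIMAT0000126) and miR-24-3p (MIMAT0000219), of 874 mature mouse miRNAs listed in all. Of the 5 members, 4 had counts, and miR-24-3p had no row under its accession in the tables used here and was not analysed. Whether its reads were counted under another accession was not determined.

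In these clusters 3 hairpins are transcribed together from one primary transcript and cut apart into separate mature miRNAs. A miRNA recognizes target mRNAs mainly through its seed, the bases near its 5′ end, and represses them. The clusters are known from endothelial, blood and fat cells, where miR-27 is studied as a repressor of fat cell formation and miR-23 and miR-27 as regulators of vessel growth. In serum, miR-23a-3p is also used as a reference in ratios with red-cell miRNAs, because its level changes little when red cells break.

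Serum came from 3 female athymic NCr nude mice (mice 1046, 1047 and 1069), which were 4 to 6 weeks old when grafted and are immunodeficient. It was drawn before and 2 weeks after implantation of SH-SY5Y cells, an established human neuroblastoma line, beneath the renal capsule. RNA from each of the 6 sera (50 μl) was split into 2 aliquots, of which 1 was depleted of 5′ tRNA fragments with biotinylated DNA probes and streptavidin beads, which gave 4 groups of 3 libraries. All 3 mice received tumour cells, so that the effect of the graft and that of elapsed time cannot be told apart.

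Mouse miRNA counts ranged from 938706 to 1820856 in the depleted libraries before injection and from 1741384 to 2271549 after injection. Undepleted libraries were shallower, with 21235 to 97183 counts before and 49443 to 68140 after injection. The labels name the mice, so that the groups are replicated over 3 animals, whereas both aliquots of a serum are the same biological sample. No 2 libraries held identical mouse tables.

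The mature sequences are shown because the members fall into seed families that cut across the clusters, and because the miR-27 paralogues can only be told apart near their 3′ end. Sequences are those of RefSeq (GRCm38.p6), written 5′ to 3′, and 4 of the 5 members were matched. Capitals mark the seed (bases 2 to 8).
miR-23a-3p: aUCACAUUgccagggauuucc
miR-27a-3p: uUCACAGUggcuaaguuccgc
miR-27b-3p: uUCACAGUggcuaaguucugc
miR-24-3p: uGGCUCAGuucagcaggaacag
The remaining member is miR-23b-3p, so that reads matching both miR-23 paralogues could not be assessed from the sequences. Both miR-27 sequences have the same seed and the same first 18 bases, and differ by the single substitution C19U, counted from the 5′ end with the base of miR-27a-3p first. Of their 21 bases, the last 3 include this position. A read that ends before position 19 therefore matches both loci, and how such reads were counted is not stated.

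The first cluster lies on the plus strand of chromosome 8. Mir23a spans chr8:84208518-84208592, Mir27a spans chr8:84208672-84208758 and Mir24-2 spans chr8:84208815-84208921 (GRCm38.p6). Of these hairpins only Mir24-2 overlaps another annotated plus-strand gene in GENCODE, an exon of the lincRNA Gm26532. The second cluster lies on the plus strand of chromosome 13, within the protein-coding gene 2010111I01Rik and opposite Fancc, a gene of the Fanconi anaemia pathway. Mir23b (chr13:63300484-63300557) overlaps no exon of 2010111I01Rik, whereas Mir27b (chr13:63300712-63300784) and Mir24-1 (chr13:63301208-63301275) overlap annotated exons of it. The mature miR-24-3p is encoded in both clusters. On the opposite strand of both miR-24 loci RefSeq places a miR-3074 hairpin, whose miR-3074-5p overlaps miR-24-3p by 20 bases, shown in capitals.
miR-3074-5p: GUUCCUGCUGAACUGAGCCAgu
Strand use in the counting is not stated.

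**Figure D1:**
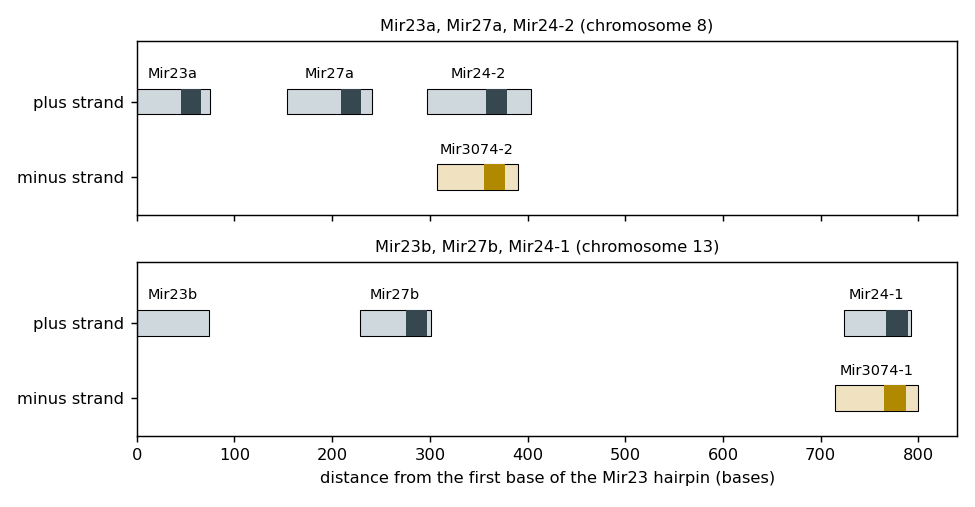
Hairpins of the clusters on chromosome 8 (top) and chromosome 13 (bottom), by distance in bases from the first base of the Mir23 hairpin and by strand (GRCm38.p6). Dark bars mark the mature miR-23a-3p, miR-27a-3p, miR-27b-3p and miR-24-3p, and gold bars miR-3074-5p; Mir24-2 starts 297 bases and Mir24-1 starts 724 bases from the Mir23 start.

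In every library the order of the counts was miR-27b-3p, miR-27a-3p, miR-23a-3p, miR-23b-3p, from highest to lowest (12 of 12 libraries). By these counts the more abundant miR-23 was that of the chromosome 8 cluster and the more abundant miR-27 that of the chromosome 13 cluster. How reads that match both paralogues of a pair were assigned is not stated. The levels below are reads per 1000000 mouse miRNA counts (RPM), a scale that corrects for library size only. The efficiency of library preparation can differ between miRNA sequences, so that RPM of different miRNAs are not molar amounts.

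miR-27b-3p was between rank 12 and rank 19 of all mouse miRNAs in the 12 libraries. In depleted libraries before injection it reached 10030 RPM in mouse 1046, 8840 in mouse 1047 and 20321 in mouse 1069. After injection the depleted libraries held 12616, 9392 and 10945 RPM of miR-27b-3p in the same order of mice. Mouse 1069 before injection stood above the other 5 depleted libraries, and the groups overlapped. The undepleted libraries held 15929, 13622 and 23970 RPM of miR-27b-3p before and 15967, 15630 and 17050 after injection. Again the serum of mouse 1069 before injection was the highest, and the mean of all 3 mice was 17840 ± 5432 RPM before (SD, n = 3) and 16216 ± 742 after injection (SD, n = 3).

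miR-27a-3p ranked between 27 and 45. Depleted libraries held 2910, 2485 and 4226 RPM before injection (mice 1046, 1047 and 1069) and 5992, 5013 and 6666 RPM of miR-27a-3p after injection. Every mouse was higher after injection, by 1.58 to 2.06 times, and the lowest library after injection was above the highest before. On the RPM scale 90 of 310 miRNAs tested (29%) had such a pattern. Undepleted libraries held 1934, 1689 and 2637 RPM of miR-27a-3p before injection and 2876, 3195 and 3823 after injection. There, too, the groups did not overlap, as for 30 of 108 miRNAs tested (27.8%), and the ratio of after to before was 1.45 to 1.89 in the 3 mice.

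miR-23a-3p, encoded next to miR-27a-3p, ranked between 43 and 60. In depleted libraries it was at 1268, 1242 and 1538 RPM before and at 1937, 2028 and 2386 RPM after injection. The undepleted libraries gave 1523, 1456 and 1554 RPM of miR-23a-3p before and 1776, 1848 and 2245 RPM after injection. All 3 mice were higher after injection in both kinds of library, by 1.53 to 1.63 times in depleted and by 1.17 to 1.44 times in undepleted libraries. The groups did not overlap in either kind. On the RPM scale this pattern was shared by 90 of 310 miRNAs tested (29%) in depleted and 30 of 108 (27.8%) in undepleted libraries.

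miR-23b-3p was the scarcest of the 4. Its counts in depleted libraries were 52, 58 and 61 before injection (38.6, 31.9 and 65.0 RPM) and 77, 99 and 98 after injection (43.2, 56.9 and 43.1 RPM). The RPM of the groups overlapped. The undepleted libraries held 5, 2 and 0 counts of miR-23b-3p before and 3, 5 and 6 counts after injection. The count of 0, in mouse 1069, allows a level of up to 141.3 RPM (3 counts of that library), above all other values of miR-23b-3p, so that the undepleted libraries say little about this member. Limits and intervals cover counting error only, since the reads carry no molecular identifiers.

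**Figure D2:**
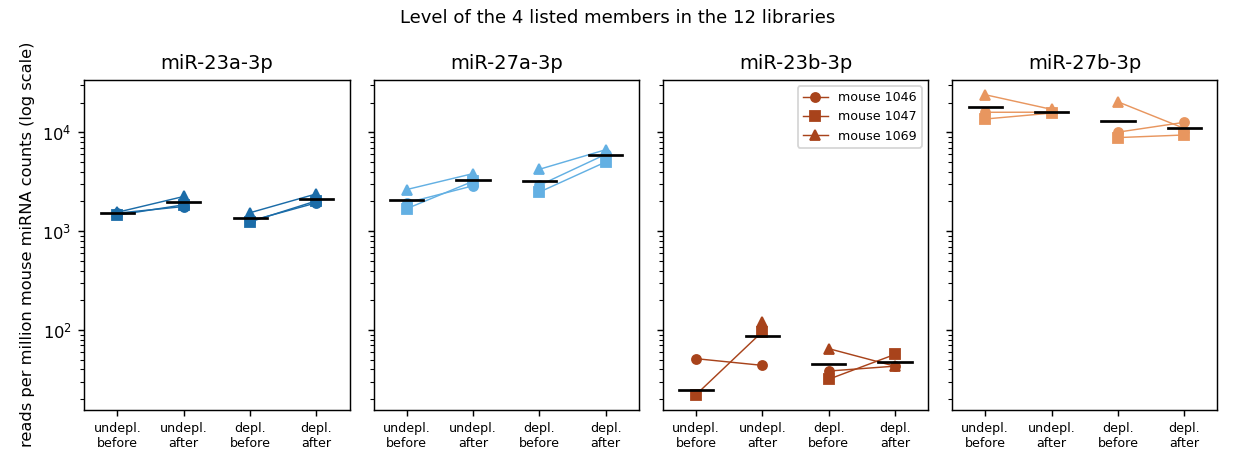
RPM (log axis) of miR-23a-3p, miR-27a-3p, miR-23b-3p and miR-27b-3p in 12 libraries, with 1 symbol per mouse, lines joining the time points of a mouse within a kind of library, and black bars for group means. miR-27a-3p after injection sits between 5013 and 6666 in depleted libraries, above its 3 values before; the 0 of miR-23b-3p in mouse 1069 (undepleted, before) is not drawn but enters the mean.

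The first comparison asks which serum miRNAs changed after implantation. In the depleted libraries DESeq2 tested 310 miRNAs, and 33 of them (10.6%) changed at least 2-fold with an adjusted p-value under 0.05, the rule for a call. None of the 4 members was called. On the adjusted p-value alone 52 miRNAs (16.8%) passed, again without a member. miR-27a-3p had the largest estimate among them, with a log2 fold change after against before of 0.60 (SE 0.24, 95% confidence interval 0.12 to 1.08, adjusted p = 0.0738). It was 0.37 (SE 0.24, adjusted p = 0.280) for its cluster partner miR-23a-3p. The chromosome 13 members had negative estimates, -0.43 (SE 0.27, adjusted p = 0.270) for miR-27b-3p and -0.12 (SE 0.35, adjusted p = 0.852) for miR-23b-3p. The estimate for miR-27b-3p rests on mouse 1069: without it the value was -0.17 (adjusted p = 0.492), and on the RPM scale the ratio of after to before was 1.26 and 1.06 in mice 1046 and 1047 and 0.54 in mouse 1069. The median of the 4 members was 0.12 against -0.09 over all 310 miRNAs tested.

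Normalised counts of miR-23a-3p and of miR-27a-3p did not overlap between the time points in the depleted libraries. Of all miRNAs tested, 63 (20.3%) had this pattern in the same direction. miR-27a-3p came to 5248, 4982 and 6325 normalised counts before injection and 8566, 7223 and 9973 after injection. The change of miR-27a-3p came close to the threshold of the adjusted p-value and passed it under some settings: adjusted p = 0.0474 with TMM factors in DESeq2, 0.0172 with total counts as size factors and 0.00111 without mouse 1069, and 0.0546 to 0.286 under the others. With total counts as size factors the median of all miRNAs tested moved from -0.09 to 0.14, miR-23a-3p had an estimate of 0.62 (adjusted p = 0.0358 by DESeq2), and that of miR-23b-3p turned to 0.09. No setting gave any of the 4 members both an adjusted p-value under 0.05 and a 2-fold change.

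In the undepleted libraries 108 miRNAs were tested and 12 (11.1%) were called, none of them a member. The adjusted p-value alone was passed by 21 miRNAs (19.4%), also without a member. The shares called depended on the mice: without mouse 1047 they were 1 of 395 (0.253%) here and 11 of 285 (3.86%) in depleted libraries. miR-27a-3p had a log2 fold change of 0.55 (SE 0.25, adjusted p = 0.105), miR-23a-3p of 0.23 (SE 0.27, adjusted p = 0.632) and miR-27b-3p of -0.19 (SE 0.21, adjusted p = 0.607). With total counts as size factors the adjusted p-value of miR-27a-3p was 0.0490 (estimate 0.65). miR-23b-3p had too few counts for an adjusted p-value in this fit. Normalised counts of miR-27a-3p were 117.2, 109.1 and 129.1 before and 154.5, 172.3 and 205.7 after injection. They did not overlap, nor did those of miR-23a-3p, a pattern that 24 of the 108 miRNAs (22.2%) shared. For miR-23a-3p the gap was narrow, from 94.0 in mouse 1047 before to 95.4 in mouse 1046 after injection. The aliquots come from the same sera, and the undepleted libraries are therefore no independent repeat of the depleted ones.

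miR-16-5p (MIMAT0000527), which is abundant in red cells, moved the opposite way. In depleted libraries it was at 125973, 125281 and 108496 RPM before and at 77115, 67268 and 56240 RPM after injection, and its log2 fold change was -1.07 (SE 0.25, adjusted p = 0.000882 by DESeq2). Without mouse 1047 it was -0.87 (adjusted p = 0.119). The ratio of miR-16-5p to miR-23a-3p was 99.4, 100.8 and 70.5 before and 39.8, 33.2 and 23.6 after injection in depleted libraries. It was lower after injection in 3 of 3 mice, with a mean log2 difference of -1.50 in depleted and -1.26 in undepleted libraries (p = 0.1 in each, two-sided exact permutation test of 3 against 3, which can give no smaller p). With miR-27b-3p as the denominator the differences were -0.69 (exact permutation p = 0.3) and -0.80 (exact permutation p = 0.2). RPM are shares of a common total. The study determined the breakage of red cells in its sera from the absorbance of free haemoglobin, and those values were not used here. The part of miR-16-5p or of red-cell RNA in the values of miR-23a-3p and miR-27a-3p was not tested.

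**Figure D3:**
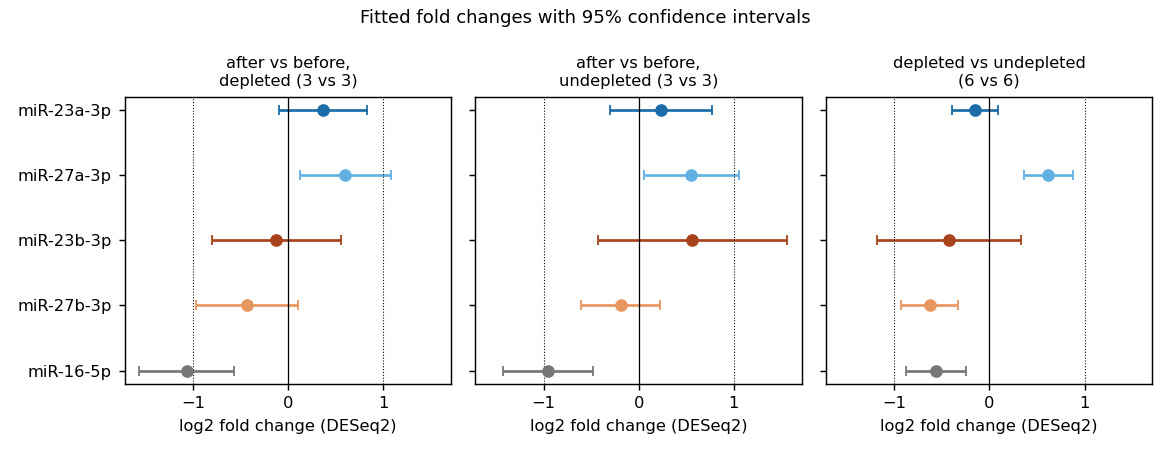
Log2 fold changes from DESeq2 (points) with 95% confidence intervals (bars) for the 4 members and miR-16-5p, after against before injection in depleted and in undepleted libraries, and depleted against undepleted; dotted lines mark 2-fold changes. No interval of a member lies wholly beyond a 2-fold change, but some reach past it. After injection, that of miR-27a-3p reaches 1.08 in depleted and 1.05 in undepleted libraries, and that of miR-23b-3p reaches 1.56 in undepleted libraries. With depletion, the interval of miR-23b-3p reaches -1.18. miR-27a-3p (0.60, 0.55 and 0.62) is the only one of the 4 with a positive interval in all 3 panels.

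The paralogues were then compared within each library, where no size factor enters. Before injection miR-27a-3p made up 22.5%, 21.9% and 17.2% of the miR-27 counts in depleted libraries (mice 1046, 1047 and 1069). The 95% confidence intervals (Clopper-Pearson) were 21.9 to 23.1%, 21.4 to 22.5% and 16.7 to 17.7%. After injection the shares were 32.2%, 34.8% and 37.9%, with intervals of 31.7 to 32.7%, 34.2 to 35.4% and 37.4 to 38.3%. Mouse 1069 thus had the lowest share before and the highest after injection. In undepleted libraries the miR-27a-3p share was 10.8%, 11.0% and 9.91% before and 15.3%, 17.0% and 18.3% after injection.

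The ratio of miR-27a-3p to miR-27b-3p was 2.09 times as high after as before injection in depleted libraries (mean log2 difference 1.06) and 1.71 times as high in undepleted libraries (0.77). It was higher in 3 of 3 mice in both, without overlap between the groups. With 3 libraries a group the two-sided exact permutation test gave p = 0.1 for each, the smallest it can give (0.25 with the mice paired, adjusted p = 0.25 by Benjamini-Hochberg over 20 tests of ratios and shares). The log2 change was larger in the depleted aliquot of every mouse, by 0.14 to 0.52. This difference had a p of 0.25 by an exact sign-flip test, again the smallest possible with 3 mice. Without mouse 1069 the mean log2 difference after injection was 0.82 in depleted and 0.65 in undepleted libraries. It was 1.24 and 0.87 without mouse 1046, and 1.13 and 0.80 without mouse 1047.

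miR-23a-3p made up almost all miR-23 counts. It took 95.9 to 97.5% of them in depleted libraries before and 97.3 to 98.2% after injection, which corresponds to ratios to miR-23b-3p of 23.7 to 55.3. Their log2 ratio differed between the time points by 0.51 in depleted libraries (higher in 2 of 3 mice, exact permutation p = 0.2) and by -1.06 in undepleted libraries (higher in 1 of 3 mice, exact permutation p = 0.2). The latter value rests on at most 6 counts of miR-23b-3p per library. Both values moved with the mice included, from 0.16 without mouse 1069 to 0.84 without mouse 1047 in depleted libraries, and from -1.81 without mouse 1046 to -0.66 without mouse 1069 (-0.71 without mouse 1047) in undepleted libraries.

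**Figure D4:**
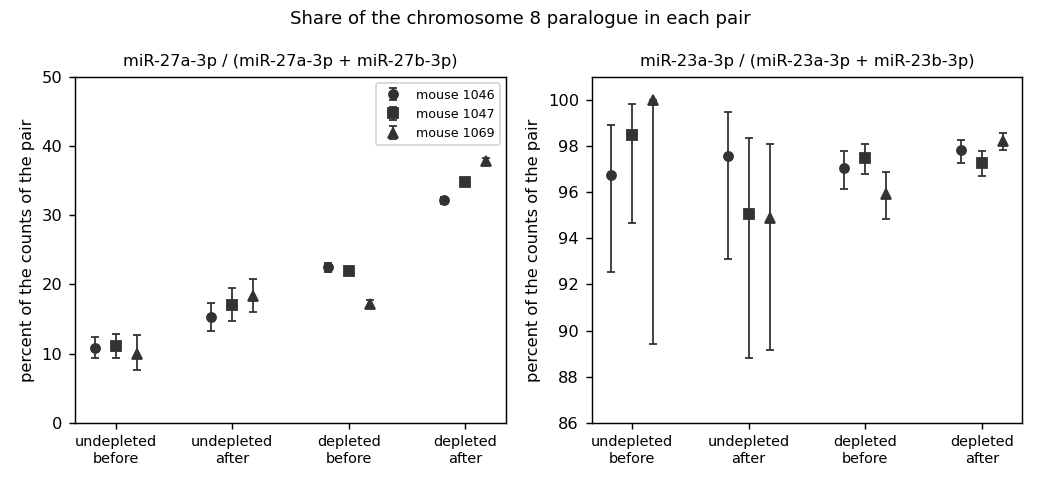
Percent of the counts of each paralogous pair that were assigned to the chromosome 8 member, in each library. Bars are 95% Clopper-Pearson intervals, with 1 symbol per mouse, and the right axis starts at 86%. The miR-27a-3p share is 9.91 to 18.3% in undepleted and 17.2 to 37.9% in depleted libraries and is higher after injection within each, while the intervals of the miR-23a-3p share are wide where miR-23b-3p has few counts.

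The members of a cluster were also compared with each other. On chromosome 8 the ratio of miR-27a-3p to miR-23a-3p lay between 2.00 and 3.09 in depleted and between 1.16 and 1.73 in undepleted libraries. After injection it was higher in 3 of 3 mice in both, by a mean of 0.25 (depleted) and 0.31 (undepleted) on the log2 scale, and the groups overlapped (exact permutation p = 0.2 for each). With mice left out the means were 0.16 (without mouse 1046) to 0.37 (without mouse 1069) in depleted and 0.18 (without mouse 1047) to 0.46 (without mouse 1069) in undepleted libraries. On chromosome 13 the ratio of miR-27b-3p to miR-23b-3p lay between 165.2 and 312.7 in depleted libraries.

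The second comparison asks how the depletion of 5′ tRNA fragments changed miRNA levels. In a DESeq2 fit of all 12 libraries with the time point as covariate, 383 miRNAs were tested and 32 (8.36%) were called, none of them a member. On the adjusted p-value alone 55 miRNAs (14.4%) passed, 2 of the 4 members among them, with opposite signs. The estimates of the paralogues miR-27a-3p and miR-27b-3p thus differed in direction. Their first 18 bases are identical, and how reads that match both were counted is not stated. miR-27a-3p rose in depleted libraries by 0.62 on the log2 scale (SE 0.13, adjusted p = 2.79e-05), and miR-27b-3p fell by 0.63 (SE 0.15, adjusted p = 0.000457).

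The normalised count of miR-27a-3p was higher in the depleted aliquot of 6 of 6 sera. The 3 sera from before injection had 929.4, 837.3 and 1058 normalised counts of miR-27a-3p in depleted and 647.0, 591.1 and 705.3 in undepleted aliquots, and the 3 sera from after injection had 1575, 1361 and 1931 against 876.7, 972.4 and 1184. Of all miRNAs tested, 61 (15.9%) were higher in all 6 depleted aliquots. miR-27b-3p was lower in all 6, as were 32 miRNAs (8.36%), with 3384 ± 876 normalised counts in depleted and 5235 ± 629 in undepleted libraries (SD, n = 6 sera of 3 mice).

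Adjusted p-values of both miR-27 members were lost without mouse 1046 (0.230 for miR-27a-3p and 0.146 for miR-27b-3p by DESeq2), with estimates of 0.56 and -0.65. For miR-27b-3p the adjusted p-value was also 0.0913 with TMM factors in DESeq2, 0.117 with total counts as size factors and 0.440 in edgeR. In the fit blocked by serum, estimates were 0.61 for miR-27a-3p (adjusted p = 9.97e-13 by DESeq2) and -0.66 for miR-27b-3p (adjusted p = 3.59e-17). That fit treats the 6 sera as independent blocks, although they come from 3 mice. TMM factors moved the median of all miRNAs tested from -0.04 to 0.20, with estimates of 0.88 for miR-27a-3p and -0.35 for miR-27b-3p.

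miR-23a-3p and miR-23b-3p did not pass the test of depletion. Their estimates were -0.15 (SE 0.12, 95% confidence interval -0.40 to 0.09, adjusted p = 0.517) and -0.43 (SE 0.39, interval -1.18 to 0.33, adjusted p = 0.590). Normalised counts of miR-23a-3p were lower in the depleted aliquot of 6 of 6 sera, but its RPM were higher in 3 of 6. The sign for miR-23a-3p depended on the scaling, since it was 0.10 with TMM factors in DESeq2 and 0.11 in edgeR.

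**Figure D5:**
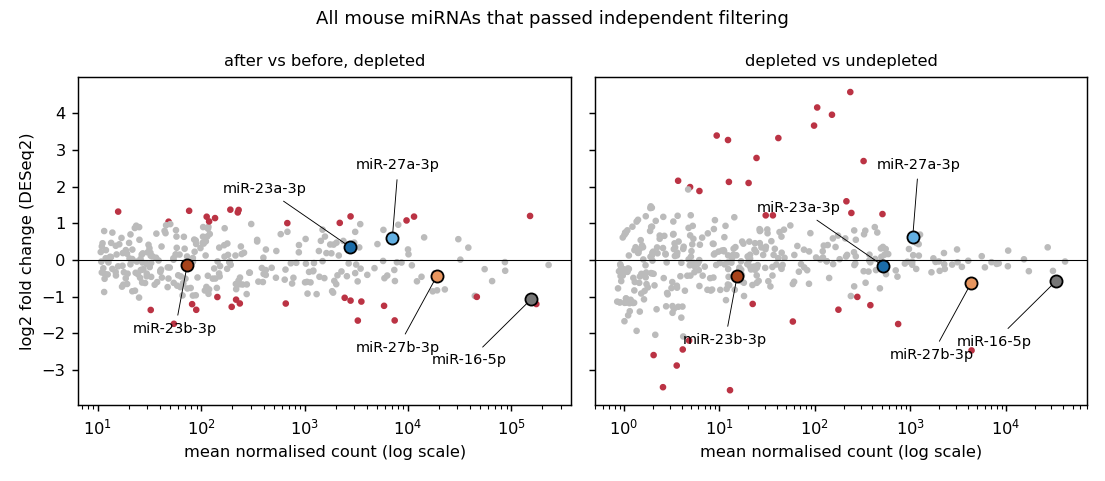
Log2 fold change from DESeq2 against the mean normalised count (log axis) of all miRNAs that passed independent filtering, after against before injection in depleted libraries (310 miRNAs) and depleted against undepleted (383 miRNAs). Red points passed an adjusted p-value under 0.05 with a 2-fold change, and larger points are the 4 members and miR-16-5p; the members sit among grey points on both panels, miR-27a-3p above and miR-27b-3p below 0.

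The ratio of miR-27a-3p to miR-27b-3p within a library does not depend on scaling. It was higher in the depleted aliquot of 6 of 6 sera, on average 2.40 times (log2 difference 1.26, range 0.92 to 1.44). The two-sided exact sign-flip test over the 6 sera gave p = 0.03125, the smallest it can give, and 0.156 after adjustment over the 20 tests of ratios and shares. The 6 sera come from 3 mice and are not fully independent. With mice left out the log2 difference was 1.23 to 1.31. The ratio of miR-27a-3p to miR-23a-3p was likewise higher in the depleted aliquot of 6 of 6 sera, by 0.75 on the log2 scale (range 0.52 to 0.93, exact sign-flip p = 0.03125, adjusted 0.156). The ratio of miR-23a-3p to miR-23b-3p was higher in 4 of 6 sera, by 0.09 on average (range -1.50 to 1.58, exact sign-flip p = 0.781). This average depends on how the 0 count was treated, since it was 0.51 (exact sign-flip p = 0.25) with 1 count added to every count, and it was 0.06 without mouse 1046. For miR-16-5p to miR-23a-3p the ratio was lower in the depleted aliquot of 6 of 6 sera (mean log2 difference -0.41, exact sign-flip p = 0.03125, adjusted 0.156). Probe sequences were not compared with the members here, and a cause of the miR-27 difference was not tested.

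The interaction of time point and depletion asks whether the change after injection depended on the library preparation. No miRNA of 874 passed an adjusted p-value under 0.05 in DESeq2 (0%; 3 had an unadjusted p-value under 0.05) or in edgeR (11 unadjusted). Interaction estimates were 0.24 (SE 0.25) for miR-23a-3p, 0.13 (SE 0.27) for miR-27a-3p, -0.17 (SE 0.32) for miR-27b-3p and -1.23 (SE 0.83) for miR-23b-3p. The 95% confidence interval for miR-27a-3p, -0.40 to 0.67, covers changes in either direction, as does the interval with the serum as a replicate block, -0.15 to 0.46.

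As a whole the 4 members with counts took 1.42, 1.26 and 2.61% of mouse miRNA counts in depleted libraries before and 2.06, 1.65 and 2.00% after injection (mice 1046, 1047 and 1069). The sum is mostly miR-27b-3p, and mouse 1069 before injection was again the highest. Before injection the mean was 1.77 ± 0.74% and after injection 1.90 ± 0.22% (SD, n = 3 each; difference of 0.14 percentage points, exact permutation p = 0.8). The summed share was lower in the depleted aliquot of 6 of 6 sera, by 0.01 to 0.52 percentage points (mean difference -0.32, exact sign-flip p = 0.03125, adjusted 0.156).

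Likeness was measured across the 6 depleted libraries as Pearson's r of log2(normalised count + 1). It was 0.85 for miR-23a-3p with miR-27a-3p and 0.55 for miR-27b-3p with miR-23b-3p. Spearman's rho, which uses ranks, was 0.77 and 0.20 for these pairs. Mouse 1069 before injection had the highest normalised count of both miR-27b-3p (30412) and miR-23b-3p (97.3). Between paralogues r was -0.24 for miR-27a-3p with miR-27b-3p (rho -0.37) and -0.37 for miR-23a-3p with miR-23b-3p (rho -0.26). Among 213 miRNAs with a mean of at least 50 normalised counts, those most like each member were MIMAT0000535 (r = 0.99) and MIMAT0004628 (0.97) for miR-27a-3p, MIMAT0000221 (0.96) and MIMAT0004186 (0.96) for miR-23a-3p, MIMAT0000378 (0.97) and MIMAT0000524 (0.96) for miR-27b-3p, and MIMAT0001537 (0.88) and MIMAT0000739 (0.87) for miR-23b-3p. These values describe 6 libraries of 3 mice that share the difference between the time points and a set of size factors.

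Reads were counted against both genomes. For each of the 4 members the entry of the human tables with the closest counts was taken, without a match by name or sequence. Close counts were thus the rule of choice. The next closest entries differed by 2063 counts for miR-23a-3p, 100 for miR-23b-3p, 9871 for miR-27a-3p and 21466 for miR-27b-3p. The entries taken differed by 3 of 18458 counts for miR-23a-3p (MIMAT0000078), 0 of 466 for miR-23b-3p (MIMAT0000418), 19 of 47907 for miR-27a-3p (MIMAT0000084) and 1 of 118409 for miR-27b-3p (MIMAT0000419), summed over all 12 libraries. From these tables, reads of the members that came from the mouse and from the human graft cannot be told apart.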

How the data were processed

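Small RNA libraries (TruSeq small RNA kit v2, 15 PCR cycles) of 12 serum aliquots were analysed. The authors deposited raw read counts per mature miRNA, a mouse and a human table per library. They trimmed reads with Cutadapt 1.8.1, discarded short or adaptorless reads, filtered on quality, mapped with Bowtie 1.1.2 without mismatches and assigned reads by miRBase coordinates (GRCm38/mm10 or GRCh37/hg19). How multimapping reads and strand were handled is not stated. A miRNA not listed in a library was taken as 0, except miR-24-3p, which had no row and was not analysed.

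Fits used all mouse miRNAs in DESeq2 1.42.0 (R 4.3.3). The study also used DESeq2, in another version, and its settings are not given in full in the sources used here. The settings here were median-of-ratios size factors, Wald test with zero-centred prior (none for the interaction), independent filtering, and calls at an adjusted p-value under 0.05 with a 2-fold change. Ratios and shares were tested in Python 3.11.15 by exact two-sided permutation tests (0.5 added to both counts where a count was 0). Alternatives were edgeR 4.0.16, TMM factors, a count filter, a replicate block, no prior, the adjusted p-value alone, omission of each mouse and, added after seeing the data, total counts as size factors, the ratios with miR-16-5p and the ratio of miR-27a-3p to miR-23a-3p. The tests were checked on simulated data. Depth limits precision most in undepleted libraries (21235 to 97183 counts).

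Members and lists were chosen with earlier results of these data known. Named miRNAs are the members, the 2 most correlated with each, and miR-16-5p. No reference used here paired other miRBase accessions with names, so that other arms of the clusters, miR-128-3p, miR-451a and the marker lists for blood, endothelial and liver cells were not matched. Time points are paired by animal and aliquots by serum, as labelled. Deviations from the group means correlated at 0.43 to 0.62 between aliquots of a serum and at -0.42 to 0.10 between time points of a mouse.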

Additional observations from a re-analysis of the deposited data

How the results depend on the processing

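No member was called at an adjusted p-value under 0.05 with a 2-fold change under any alternative, and on the adjusted p-value alone 2 members (miR-27a-3p and miR-27b-3p) passed in the depletion fit. Signs turned for estimates close to 0: miR-23b-3p after injection in depleted libraries (0.085 with total counts as size factors, -0.280 to 0.093 with mice left out, the positive value without mouse 1069), miR-23a-3p with depletion (0.11 in edgeR and 0.10 with TMM factors in DESeq2) and the interaction of miR-27b-3p (-0.39 to 0.055 with mice left out, positive without mouse 1069). With mice left out, the depleted minus undepleted log2 differences were 1.23 to 1.31 (miR-27a-3p to miR-27b-3p), 0.68 to 0.80 (miR-27a-3p to miR-23a-3p) and -0.43 to -0.40 (miR-16-5p to miR-23a-3p), and -0.34 to -0.26 percentage points for the summed share; the exact p-value was 0.125 in each case, the smallest that 4 sera allow. In undepleted libraries the estimate of miR-23a-3p after injection was 0.04 without mouse 1069. With 1 mouse left out, 11 to 32 miRNAs were called in the depleted, 1 to 11 in the undepleted and 19 to 33 in the depletion fit, the lowest without mouse 1047, 1047 and 1046. The after minus before difference of the summed share ranged from -0.11 to 0.51 percentage points in depleted and from -0.18 to 0.26 in undepleted libraries. With miR-27b-3p in place of miR-23a-3p as denominator, the difference of the miR-16-5p ratio with depletion turned to 0.10 (exact p = 0.25), and without the most abundant miRNA in the total the summed share differed by -0.40 percentage points (exact p = 0.0625); the cause was not tested.

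With the mouse as a replicate block, miR-27a-3p had a log2 fold change of 0.59 (adjusted p = 0.143 by DESeq2) after injection in depleted libraries, and with the serum as a block miR-27a-3p had 0.61 (adjusted p = 9.97e-13) and miR-27b-3p -0.66 (adjusted p = 3.59e-17) with depletion. The serum block does not allow for sera that share a mouse. The pairing changed no call of a member. The planned ratio of miR-451a to miR-23a-3p was not run, since miR-451a was not matched. Counts of miR-23b-3p limit every ratio that uses it in undepleted libraries.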
